A study of Saccharomyces cerevisiae with 5 samples.

Results

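Hexose transporters carry glucose and related sugars across the plasma membrane of yeast, and 10 genes of this system are described here: the transporters HXT1, HXT2, HXT3, HXT4, HXT5, HXT6, HXT7 and HXT10 and the glucose sensors SNF3 and RGT2. They were taken by name from the gene column of the deposited table, where they hold 69 start clusters among the clusters of 5009 genes. All 10 reached 10 CPM (tag counts scaled to library depth) in at least 1 library, as did 4904 of all genes, so the filter removed no member. HXT1 reached it only in glucose in strain BY_DEH+, and HXT10 only in glucose in strain BY_DEH++. The libraries come from baker's yeast, Saccharomyces cerevisiae, and were made by CAGE (cap analysis of gene expression), in which each tag marks the capped 5' end of an RNA. A tag is counted per RNA molecule and not per base, so levels of different genes can be set side by side without a length correction.

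There were 5 groups with 1 library each, defined by strain and carbon source. Strain BY_DEH+ was grown in glucose and in DEH (4-deoxy-L-erythro-5-hexoseulose uronate, a monosaccharide obtained from alginate), and strain BY_DEH++ in glucose, in DEH and in mannitol, a sugar alcohol; the labels describe the strains by name alone. All media held 1% (w/v) of the carbon source, in 10 mL at 30 °C. The glucose cultures grew overnight to an OD600 of 0.91 (BY_DEH+) and 0.95 (BY_DEH++). The DEH cultures grew for 3 and 2 days to 0.63 and 0.55, and the mannitol culture for 1 day to 0.79. The starting OD600 was 0.05 for both glucose cultures and for BY_DEH++ in DEH, 0.2 for BY_DEH+ in DEH and 0.02 for mannitol. The effect of the medium and that of culture time, starting density or final density therefore cannot be told apart. Each library held between 9.43 M and 19.9 M reads, a depth read from the smallest difference between low values. Each group is a single library, so no difference below has a replicate check, and the 95% intervals given cover counting error only. The median gene stood lower in mannitol than in glucose by 0.46 on the log2 scale, and median-of-ratios scaling moved that median by 0.42, that of DEH over mannitol by -0.32 and that of the strains in DEH by 0.22.

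As background, glucose reaches the yeast cell by facilitated diffusion through Hxt proteins of different affinity. Hxt1 and Hxt3 are low-affinity carriers of cells with plenty of glucose, Hxt2, Hxt6 and Hxt7 are high-affinity carriers of cells with little glucose, Hxt4 lies in between, and Hxt5 is known from slow-growing and starved cells. Snf3 and Rgt2 resemble the transporters but act as sensors: on binding glucose they trigger the loss of Mth1 and Std1, which frees HXT promoters from the repressor Rgt1. In abundant glucose the repressor Mig1 in turn holds down the genes of high-affinity carriers.

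HXT1, HXT3 and HXT4 were read almost exclusively in glucose. HXT3 (chromosome IV, 1162957 to 1164660, minus strand) stood at 145 CPM in BY_DEH+ and 195 CPM in BY_DEH++ in glucose, and was listed at 0 in both DEH libraries and in mannitol. HXT4 (chromosome VIII, 287081 to 288811, minus strand) stood at 205 CPM in glucose and 1.40 CPM in DEH in BY_DEH+, at 296 CPM in glucose and 0.50 CPM in DEH in BY_DEH++, and was listed at 0 in mannitol. HXT1 (chromosome VIII, 290913 to 292625, minus strand) was low even in glucose, at 12.7 CPM in BY_DEH+ and 4.97 CPM in BY_DEH++, and was listed at 0 in the other 3 libraries. For each of these genes both glucose libraries lay above every other library. A value listed at 0 is a cluster under the lowest value of the table, which was 0.50 to 0.57 CPM (5 to 10 reads), so no ratio is given against it, and its log2 fold of CPM + 1 depends on the pseudocount. For HXT4 the ratio of glucose to DEH was 147 (95% counting interval 88.6 to 262) in BY_DEH+ and 589 (320 to 1229) in BY_DEH++. Both rest on DEH values at the floor. The 0.50 CPM in BY_DEH++ was the lowest listed value of that library. The 1.40 CPM in BY_DEH+ came from clusters of 0.56 and 0.84 CPM, where the lowest listed value was 0.56 CPM. Clusters under the floor are not listed, so these ratios are rough and their intervals cover the listed reads alone.

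**Figure D1:**
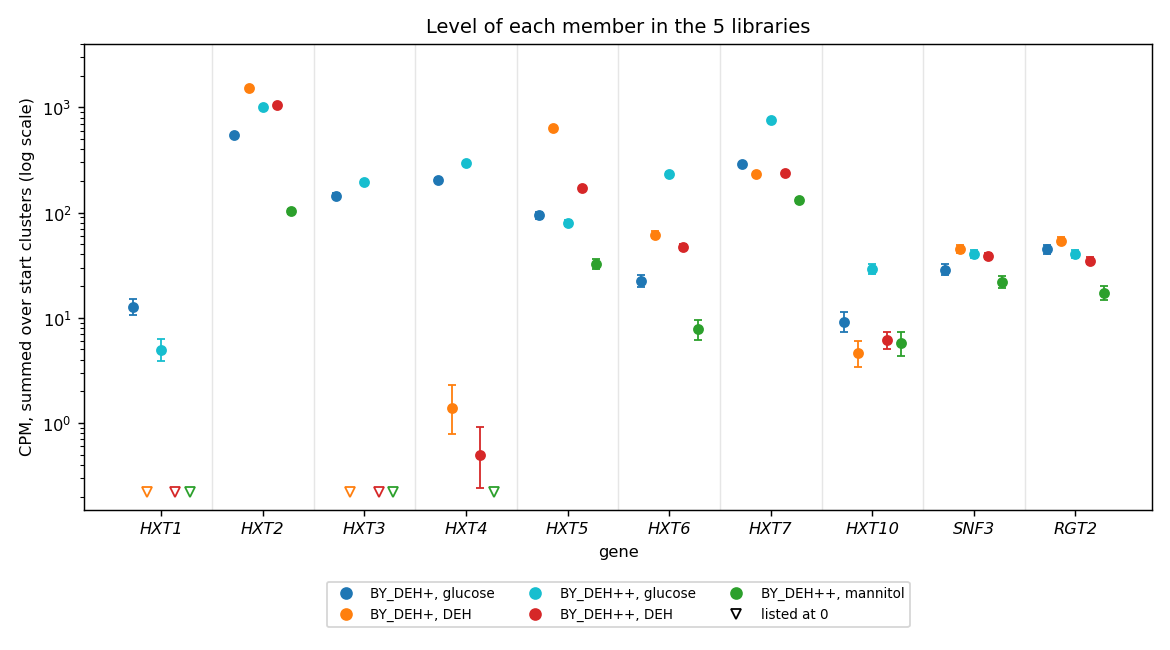
Level of each of the 10 genes in the 5 libraries, in CPM on a log axis; points are single libraries, bars are 95% Poisson intervals of the read count, and open triangles mark genes listed at 0. HXT3 and HXT4 stand at 145 to 296 CPM in glucose and at 1.40 CPM or less elsewhere, while SNF3 and RGT2 stay between 17.3 and 54.1 CPM.

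HXT1, HXT3 and HXT4 were the members that stood 4-fold or more lower in DEH than in glucose in both strains, on the scale of log2(CPM + 1) used for all calls. That is 3 of 10 members, against 59 of 4904 genes (1.2%). None stood 4-fold higher in both, against 1.1% of genes. HXT1, the lowest of the 3, did not pass in either strain with a pseudocount of 10 CPM, which left 2 members. An additive limma fit of medium and strain, with 1 residual degree of freedom and the strains standing in for replicates, called HXT3 and HXT4 lower in DEH (adjusted p = 0.00128 and 0.00149), against 4.81% of genes. It called HXT5 higher (adjusted p = 0.0468), against 4.36% of genes, and did not call HXT1 (adjusted p = 0.0712). For HXT5 the fit took the sum over all its clusters, including a distant one described below. The ratio of DEH to glucose in that sum was 6.78 in BY_DEH+ and 2.14 in BY_DEH++. A limit chosen after the values were seen was at least 100 CPM in both glucose libraries and at most 2 CPM in the other 3. It was met by 3 of 4904 genes, namely HXT3, HXT4 and FIT1, a mannoprotein that retains siderophore iron at the cell wall. HXT3 and HXT4 were among the values seen, so this count describes them and tests nothing. By the Euclidean distance between centred log2 profiles over the 5 libraries, the genes most like HXT3 were HXT4 (distance 0.90), FIT1 (0.90) and FRE2, a ferric reductase (2.57).

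The upstream region of HXT3 also stood apart in its sequence. Rgt1 binds sites of the form CGGANNA, and this motif was counted on both strands in the 1000 bases before the coding start of 6015 genes of the R64 reference (RefSeq). HXT3 held 9 matches, more than any other of these genes, and HXT1 held 8, a number reached by HXT1 and HXT3 alone. HXT5 held 4, a number reached by 3.47% of genes. HXT2, HXT4 and HXT6 held 3 each, reached by 11.1% of genes, and HXT7 held 2, reached by 31.6%. Among all genes 66.4% had at least 1 match, and the median gene had 1. HXT10, SNF3 and RGT2 held none. The matches are a description of letters, not of binding. The 260 bases of chrIV:1164961-1165220 (R64, minus strand), which lie 560 to 301 bases before the HXT3 coding start, are shown because they hold most of the matches, which are in capitals.
HXT3: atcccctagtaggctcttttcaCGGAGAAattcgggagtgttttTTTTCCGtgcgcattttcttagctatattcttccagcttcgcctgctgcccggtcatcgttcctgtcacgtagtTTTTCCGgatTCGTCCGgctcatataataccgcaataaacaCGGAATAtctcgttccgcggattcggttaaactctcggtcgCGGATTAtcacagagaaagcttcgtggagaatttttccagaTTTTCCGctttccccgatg

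**Figure D2:**
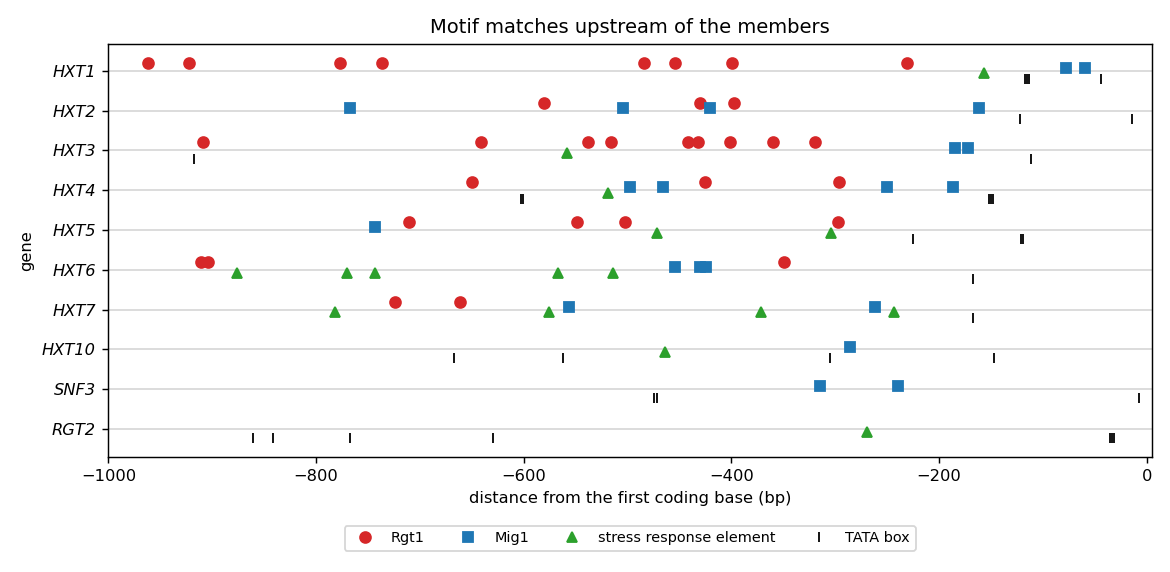
Positions of motif matches in the 1000 bases before the coding start of each member; the x axis is the distance from the first coding base in bp, and symbols mark matches on either strand to the Rgt1, Mig1, stress response element and TATA box motifs. HXT3 and HXT1 carry 9 and 8 Rgt1 matches, and HXT10, SNF3 and RGT2 carry none.

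Most HXT3 tags began at a cluster of 147 bases around the coding start (chromosome IV, 1164618 to 1164764), which stood at 128 and 183 CPM in glucose and held 88.3% of the HXT3 tags in BY_DEH+ and 93.9% in BY_DEH++. A second HXT3 cluster, 509 to 547 bases inside the coding sequence, stood at 7.64 and 5.42 CPM in glucose and was listed at 0 elsewhere. A sense cluster farther inside HXT3, which the deposited table gives to no gene and which is not in these sums, had the opposite order, with 5.27 and 6.89 CPM in the glucose libraries and 15.6 to 29.25 CPM in the others. HXT4 tags came mainly from a broad cluster of 361 bases reaching from 354 bases upstream into the first coding bases, with 186 and 283 CPM in glucose, and a farther cluster 770 to 841 bases upstream gave 14.7 and 10.5 CPM. HXT1 tags started mainly in a cluster of 44 bases that reaches 43 bases before the coding start, at 11.46 and 4.97 CPM, which held 90.0% of them in BY_DEH+ and all of them in BY_DEH++.

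HXT2 was the most abundant member in 4 of the 5 libraries. HXT2 (chromosome XIII, 288079 to 289704, plus strand) stood at 546 CPM in glucose and 1513 CPM in DEH in BY_DEH+, and at 1011 CPM in glucose, 1043 CPM in DEH and 102 CPM in mannitol in BY_DEH++. In mannitol it came after HXT7. In BY_DEH++ in glucose HXT6 and HXT7, near copies described below, together stood at 983 CPM. The ratio of DEH to glucose was 2.77 (2.68 to 2.86) in BY_DEH+ and 1.03 (1.01 to 1.05) in BY_DEH++, so neither passed 4-fold. Glucose over mannitol was 9.87-fold (9.28 to 10.5), and DEH over mannitol 10.2-fold (9.58 to 10.8). Its main cluster held 96.0% or more of HXT2 tags in every library and began 148 bases before the coding start. HXT2 carries 4 matches to the Mig1 core (GGGG after CC, CT, GC or GT, on either strand) in 1000 bases, as many as HXT4 and as reached by 0.848% of genes, whereas 41.8% of genes hold at least 1. The 300 bases of chrXIII:287629-287928 (R64, plus strand), 450 to 151 bases before the HXT2 coding start, are shown for comparison with HXT3; capitals mark Rgt1 and Mig1 matches.
HXT2: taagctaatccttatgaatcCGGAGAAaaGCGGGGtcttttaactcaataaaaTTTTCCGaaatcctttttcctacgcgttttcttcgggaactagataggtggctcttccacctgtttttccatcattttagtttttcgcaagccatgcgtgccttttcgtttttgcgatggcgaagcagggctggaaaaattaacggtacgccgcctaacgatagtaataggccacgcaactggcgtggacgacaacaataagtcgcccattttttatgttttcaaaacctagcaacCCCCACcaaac

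The genes whose profile over the 5 libraries lay nearest to HXT2 were ISF1 (distance 0.64), CRC1, the mitochondrial carnitine carrier (0.71), and RIM8, a gene of the pH response (0.72). CRC1 measured 117 CPM in glucose and 366 CPM in DEH in BY_DEH+. In BY_DEH++ it measured 127, 188 and 17.9 CPM in glucose, DEH and mannitol.

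HXT6 and HXT7, which encode nearly identical high-affinity carriers, lie close together on chromosome IV (1159608 to 1161320 and 1154216 to 1155928, minus strand) and differ in 3 of 1713 coding bases. Their 84 bases before the coding start are identical as well, and the first differing coding base is base 1632. The upstream sequences are printed because the main start clusters, 62 to 106 bases upstream for HXT6 and 61 to 170 bases for HXT7, overlap this stretch. The HXT6 stretch is chrIV:1161318-1161450 and that of HXT7 chrIV:1155926-1156058 (R64, minus strand), each from 130 bases upstream to the ATG, with the bases shared up to the coding start and the ATG in capitals.
HXT6: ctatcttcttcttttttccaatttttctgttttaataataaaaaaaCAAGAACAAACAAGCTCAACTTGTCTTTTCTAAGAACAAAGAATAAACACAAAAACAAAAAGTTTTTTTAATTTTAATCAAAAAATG
HXT7: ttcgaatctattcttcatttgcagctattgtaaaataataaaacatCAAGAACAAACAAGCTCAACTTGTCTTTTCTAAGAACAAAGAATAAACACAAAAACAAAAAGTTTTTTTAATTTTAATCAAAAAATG

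A short tag from within the capitals could have come from either gene, and how such reads were placed is not given in the sources used here. The split between the copies is thus uncertain. Their sum does not depend on that split, but it would be too low if such reads were left out. In glucose the sum stood at 309 CPM in BY_DEH+ and 983 CPM in BY_DEH++. In DEH it stood at 292 and 283 CPM, and in mannitol at 139 CPM. BY_DEH++ in glucose was thus the one library far above the rest. DEH over glucose came to 0.945 (0.898 to 0.994) in BY_DEH+, while in BY_DEH++ glucose over DEH was 3.47-fold (3.36 to 3.58) and glucose over mannitol 7.08-fold (6.70 to 7.47).

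As listed, HXT7 stood at 286.5 CPM in glucose and 230.2 CPM in DEH in BY_DEH+, and at 751, 236 and 131 CPM in glucose, DEH and mannitol in BY_DEH++. HXT6 stood at 22.4 CPM in glucose and 61.75 CPM in DEH in BY_DEH+, and at 232, 47.1 and 7.74 CPM in glucose, DEH and mannitol in BY_DEH++. HXT7 was thus higher than HXT6 in every library, but by a ratio that ran from 3.23 (3.10 to 3.37) in BY_DEH++ in glucose to 12.8 (11.1 to 14.8) in BY_DEH+ in glucose and 16.9 (13.5 to 21.5) in mannitol.

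HXT5 was the member that stood highest in DEH relative to glucose. HXT5 (chromosome VIII, 294669 to 296447, minus strand) stood at 93.8 CPM in glucose and 635 CPM in DEH in BY_DEH+, a ratio of 6.78 (6.32 to 7.28). In BY_DEH++ it stood at 79.1 CPM in glucose, 169 CPM in DEH and 32.7 CPM in mannitol, with a ratio of DEH to glucose of 2.14 (2.00 to 2.30). These sums hold a cluster that the deposited table gives to HXT5 although it lies 2139 to 2329 bases upstream and overlaps the coding start of PAL2 in the reference. That distant cluster stood at 33.9 and 71.2 CPM in glucose and DEH in BY_DEH+ and at 29.7, 39.8 and 30.0 CPM in glucose, DEH and mannitol in BY_DEH++.

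Counted only from 500 bases upstream to 100 bases downstream of the coding start, HXT5 stood at 54.6 CPM in glucose and 559.9 CPM in DEH in BY_DEH+, and at 46.9, 127 and 2.68 CPM in glucose, DEH and mannitol in BY_DEH++. The ratio of DEH to glucose was then 10.2 (9.37 to 11.2) in BY_DEH+ and 2.72 (2.49 to 2.97) in BY_DEH++. The choice of clusters mattered most in mannitol. Glucose over mannitol was 17.5-fold (12.0 to 26.6) near the coding start against 2.42-fold (2.14 to 2.74) in the sum, and DEH over mannitol 47.6-fold (32.9 to 71.8) against 5.18-fold (4.63 to 5.81).

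**Figure D3:**
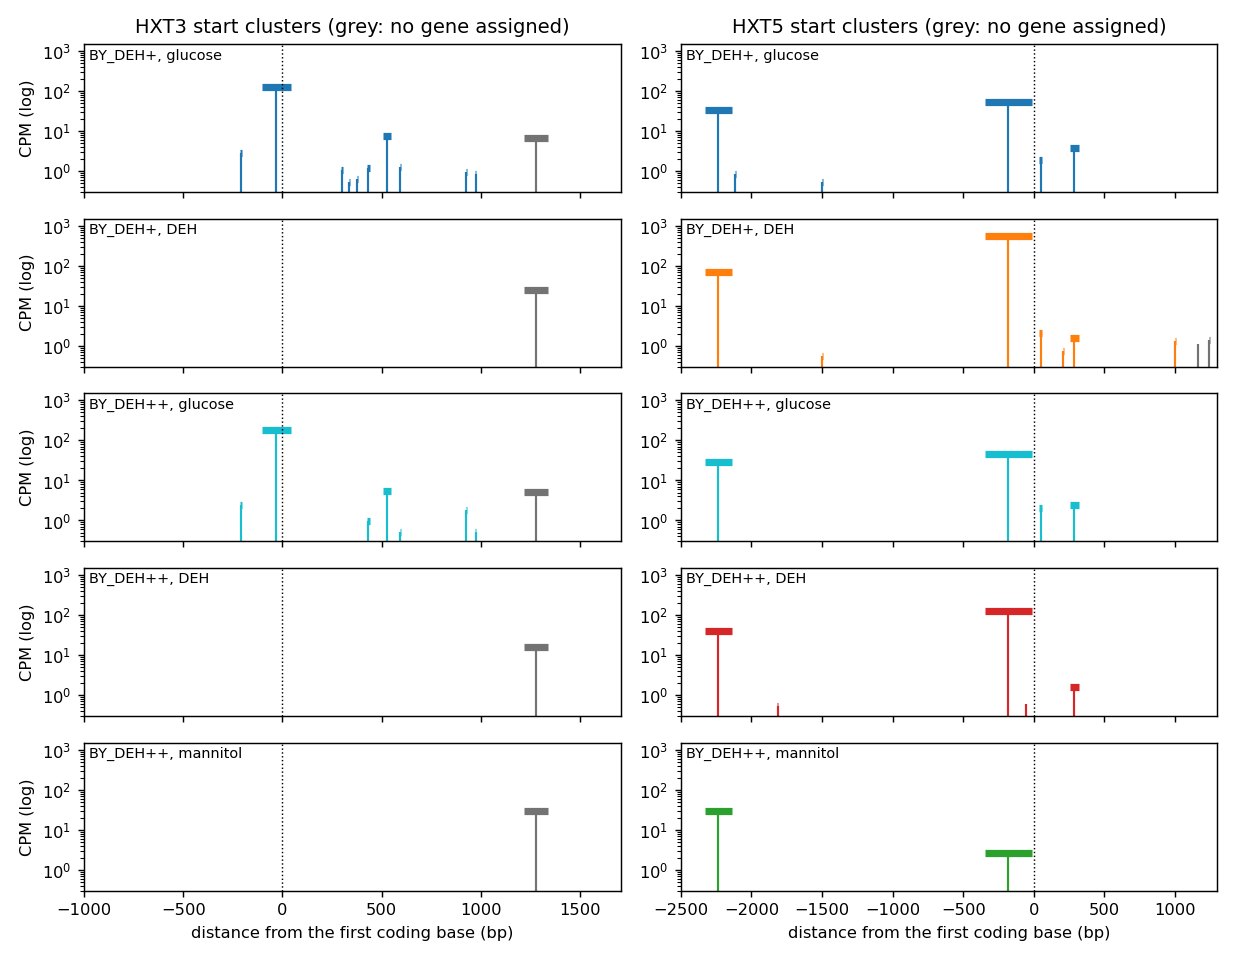
Sense start clusters of HXT3 and HXT5 in the 5 libraries; the x axis is the distance from the first coding base in bp, the y axis is CPM on a log scale, horizontal bars span each cluster, and grey marks clusters with no gene in the deposited table. The HXT3 clusters at the coding start appear in glucose alone, and the HXT5 cluster at the coding start is highest in DEH in BY_DEH+ (558 CPM) and lowest in mannitol (2.68 CPM).

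The main HXT5 cluster spans 334 bases, from 348 to 15 bases before the coding start. The 300 bases of chrVIII:296668-296967 (R64, minus strand), 520 to 221 bases before the HXT5 coding start, are shown because they take in the upstream part of this cluster and both of the HXT5 matches to the stress response element (AGGGG on either strand), which are in capitals. A stress response element is bound by the activators Msn2 and Msn4.
HXT5: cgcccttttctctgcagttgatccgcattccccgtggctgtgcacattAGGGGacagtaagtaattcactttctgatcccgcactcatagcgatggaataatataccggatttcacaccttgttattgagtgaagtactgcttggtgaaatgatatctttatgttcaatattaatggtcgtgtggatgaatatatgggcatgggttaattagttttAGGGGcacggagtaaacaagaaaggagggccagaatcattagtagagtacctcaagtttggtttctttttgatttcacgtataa

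At least 2 such matches in 1000 bases were held by 21.0% of genes, so HXT5 was not unusual in this, whereas HXT6 held 5, reached by 0.632% of genes, and HXT7 held 4, reached by 2.23%. The TATA box motif (TATAAA or TATATA on either strand, which can overlap) was present in 88.7% of genes and in all 10 members. The genes nearest in profile to HXT5, summed over all its clusters, were CRF1, a corepressor of ribosomal protein genes (distance 0.32), HSP33 (0.49) and NCA3 (0.67). In mannitol the distant cluster gave 30.0 of the 32.7 CPM in that sum, and HXT5 near its coding start stood at 2.68 CPM. These neighbours therefore hold for the sum alone, and none were sought for HXT5 near its coding start. CRF1 stood at 60.0 and 515 CPM in glucose and DEH in BY_DEH+ and at 49.9, 123 and 19.98 CPM in glucose, DEH and mannitol in BY_DEH++.

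HXT10 was low in all libraries. HXT10 (chromosome VI, 112345 to 113985, plus strand) stood at 9.13 CPM in glucose and 4.58 CPM in DEH in BY_DEH+, and at 29.15, 6.08 and 5.74 CPM in glucose, DEH and mannitol in BY_DEH++. The excess in BY_DEH++ in glucose came from its main cluster, 4 to 72 bases before the coding start, at 24.5 CPM there and at 0.96 to 4.93 CPM in the other libraries. A further cluster of 0.86 to 2.86 CPM, listed at 0 in BY_DEH++ in DEH, is given to IES1 as well.

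Over the 5 libraries the sensors spanned a narrower range than any transporter among the members, taken as the ratio of the highest to the lowest CPM + 1. SNF3 (chromosome IV, 111580 to 114234, plus strand), the sensor of low glucose, stood at 28.5 and 45.1 CPM in glucose and DEH in BY_DEH+ and at 40.4, 38.7 and 21.99 CPM in glucose, DEH and mannitol in BY_DEH++. RGT2 (chromosome IV, 213351 to 215642, plus strand), the sensor of high glucose, stood at 44.8 CPM in glucose and 54.1 CPM in DEH in BY_DEH+, and at 40.3, 34.7 and 17.3 CPM in glucose, DEH and mannitol in BY_DEH++. Neither passed 4-fold in any of the 6 comparisons. Of all genes, 0.122% to 6.24% passed in a given direction, so in each comparison most genes did not pass either. The widest ratio was glucose over mannitol, at 1.84 (1.57 to 2.15) for SNF3 and 2.33 (1.96 to 2.77) for RGT2. For SNF3 the direction of DEH against glucose in BY_DEH++ (log2 fold of -0.06) and of the strains in DEH (-0.22) turned to 0.03 and 0.0029 with median-of-ratios scaling. At least 96.1% of the tags of SNF3 and 97.9% of those of RGT2 came from a single cluster in each library.

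**Figure D4:**
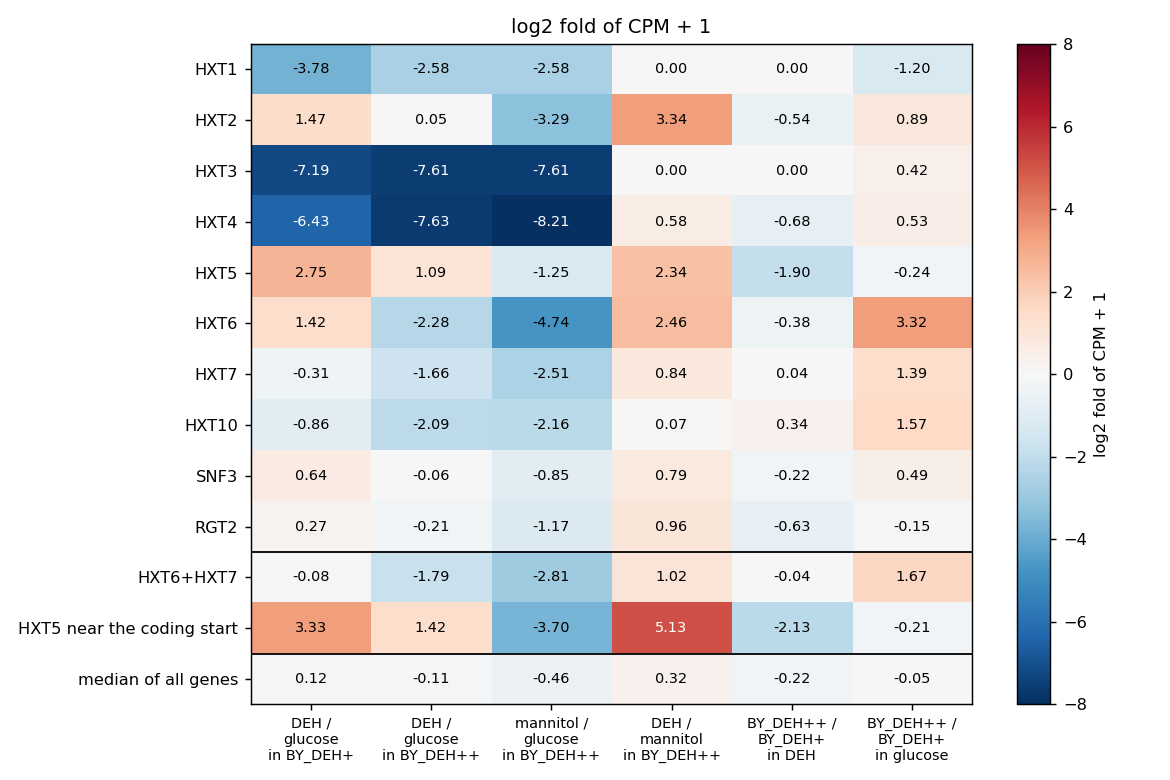
Log2 fold of CPM + 1 for each member, for the sum of HXT6 and HXT7, for HXT5 counted near its coding start and for the median of all 4904 genes, in the 6 comparisons; red is higher and blue lower in the first-named library, and 0.00 for HXT1 and HXT3 stands for libraries that both list the gene at 0. HXT3 and HXT4 give the lowest values in all 3 comparisons with glucose, and HXT6 the highest between the strains in glucose (3.32).

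The strains were then compared one at a time over all members. In DEH against glucose in BY_DEH+, 1 member (HXT5) stood 4-fold or more higher, against 2.28% of all genes, and 3 stood lower, against 3.47%. The median log2 fold of the members was -0.02 and that of all genes 0.12. In BY_DEH++ no member stood higher, against 3.22% of genes, and 5 (HXT1, HXT3, HXT4, HXT6 and HXT10) stood lower, against 2.28%, with medians of -1.88 for the members and -0.11 for all genes. HXT1 and HXT10 lost their calls with a pseudocount of 10 CPM, which left 3, and HXT10 also with median-of-ratios scaling (just inside the limit) and near the coding start (-1.98), which left 4 each. HXT6 stood at opposite sides of its glucose level in the strains, with a log2 fold of 1.42 in BY_DEH+ and -2.28 in BY_DEH++. There BY_DEH++ in glucose is the library that stood apart, and the split with HXT7 is uncertain. The sum of HXT6 and HXT7 had a log2 fold of -1.79 in BY_DEH++, which does not pass the limit.

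In mannitol 7 of 10 members stood 4-fold or more lower than in glucose, against 6.24% of all genes, and none stood higher, against 4.22%. The 7 were HXT1, HXT2, HXT3, HXT4, HXT6, HXT7 and HXT10, and HXT5 joined them when counted near its coding start. HXT10 lost its call with median-of-ratios scaling (log2 fold of -1.78), which left 6 members, and HXT1 and HXT10 lost theirs with a pseudocount of 10 CPM (-0.58 and -1.32), which left 5. The median log2 fold was -2.54 for the members and -0.46 for all genes, and -2.82 for the members with values listed at 0 set to the lowest listed value of the library. DEH stood 4-fold or more above mannitol for HXT2, HXT5 and HXT6, against 4.2% of genes, and below it for none, against 2.32%. HXT6 stood 6.08-fold (4.84 to 7.73) and HXT7 1.80-fold (1.70 to 1.92) higher in DEH than in mannitol, but their sum 2.04-fold (1.93 to 2.16), which does not pass the limit. With a pseudocount of 10 CPM the call of HXT6 ended (log2 fold of 1.69), which left 2 members. HXT10, at 6.08 and 5.74 CPM, gave a log2 fold of 0.07 that turned to -0.22 with median-of-ratios scaling. The comparisons with BY_DEH++ in glucose or in mannitol share those libraries, so their values are set side by side and are not independent.

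The summed level of the 8 transporters was higher in DEH than in glucose in BY_DEH+ and lower in BY_DEH++. It was 1321 CPM in glucose and 2446 CPM in DEH in BY_DEH+, and 2597 CPM in glucose, 1502 CPM in DEH and 279.7 CPM in mannitol in BY_DEH++. HXT2 took 41.35% of the sum in BY_DEH+ in glucose and 38.9% in BY_DEH++ in glucose. It took 61.9% and 69.4% in DEH, and 36.6% in mannitol. HXT6 and HXT7 together took 23.4% and 37.8% in glucose, 11.9% and 18.9% in DEH and 49.7% in mannitol. In glucose HXT3 took 11.0% and 7.49% and HXT4 15.5% and 11.4%, whereas in DEH and mannitol HXT3 took none and HXT4 at most 0.06%. HXT5 took 26.0% in DEH in BY_DEH+ and 11.3% in DEH in BY_DEH++, and its 11.7% in mannitol became 1.10% with clusters near the coding starts alone.

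**Figure D5:**
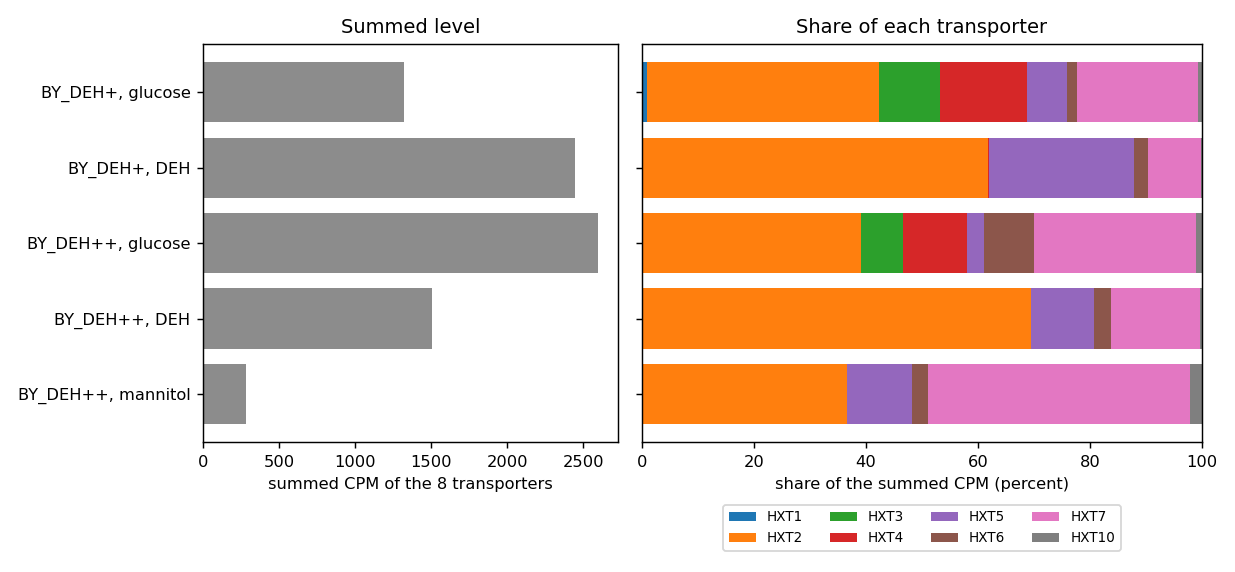
Summed CPM of the 8 transporters in each library (left, linear axis from 0) and the share of each transporter in that sum in percent (right). The sum is lowest in mannitol at 279.7 CPM. With each gene taken singly, HXT2 takes the largest share in each library except mannitol, where HXT7 does.

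Between the strains in glucose few genes of the table passed 4-fold, and 1 member, HXT6, was among them. As listed, HXT6 stood 10.4-fold (9.02 to 12.0) higher in BY_DEH++, where 6 of 4904 genes (0.122%) were 4-fold or more higher, and no member was 4-fold lower, against 0.245% of genes. With clusters near the coding start alone, or the main cluster alone, HXT10 passed the limit too, against 4.78 and 3.50 CPM in BY_DEH+. Over all its clusters, a pseudocount of 10 CPM took its log2 fold from 1.57 to 1.03. The filter of 10 CPM was passed by HXT10 only through BY_DEH++ in glucose, the library in which it stood higher. HXT10 stood 3.20-fold (2.52 to 4.09) higher over all its clusters, HXT7 2.62-fold (2.51 to 2.73), the sum of HXT6 and HXT7 3.18-fold (3.06 to 3.31) and HXT2 1.85-fold (1.79 to 1.91). The folds of HXT6, HXT7 and HXT10 lay above those of 99.9%, 99.7% and 99.8% of all genes. HXT1 stood 2.56-fold (1.88 to 3.51) lower in BY_DEH++, at 66 reads.

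Between the strains in DEH no member passed 4-fold in either direction, against 1.18% of genes higher and 1.59% lower in BY_DEH++. HXT5 came closest, 3.75-fold (3.60 to 3.91) lower in BY_DEH++, and passed the limit at 4.39-fold (4.19 to 4.60) when counted near its coding start. The sum of HXT6 and HXT7 gave a ratio of 0.971 (0.929 to 1.01), and HXT7 alone 1.03 (0.978 to 1.08). Culture time in DEH differed between the strains, as did the starting OD600 (0.2 for BY_DEH+ and 0.05 for BY_DEH++). Strain, culture time and starting density cannot be told apart here.

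A 2-fold limit took in more members but also many more genes. In DEH against glucose it was passed upwards by HXT2, HXT5 and HXT6 in BY_DEH+ (10.5% of genes) and by HXT5 in BY_DEH++ (8.69%). Downwards it was passed in BY_DEH+ by HXT1, HXT3 and HXT4 (9.97% of genes), and in BY_DEH++ by HXT7 besides the 5 members named above (10.8%). In mannitol 9 members, all but SNF3, stood 2-fold or more lower than in glucose, against 27% of genes, and none higher, against 9.89%. DEH stood 2-fold or more above mannitol for the same 3 members as at 4-fold (20.7% of genes) and below it for none (9.07%). Between the strains, BY_DEH++ was 2-fold or more lower for HXT5 in DEH (8.52% of genes) and higher for no member there (5.22%). In glucose it was higher for HXT6, HXT7 and HXT10 (0.673% of genes) and lower for HXT1 (1.12%).

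Genes that act on the HXT promoters were counted from lists. Of 6 genes of the Rgt1 pathway, 1 stood 4-fold or more lower in DEH than in glucose in BY_DEH+, 2 in BY_DEH++ and 1 in mannitol, and none stood higher. Among all genes 3.47%, 2.28% and 6.24% stood lower in these comparisons, and 2.28%, 3.22% and 4.22% higher. The list's median log2 fold was -0.97, -0.52 and -0.38 in these comparisons, where that of all genes was 0.12, -0.11 and -0.46. MTH1, a corepressor lost on glucose signalling, stood at 167 and 86.9 CPM in glucose and DEH in BY_DEH+ and at 243, 40.0 and 19.2 CPM in glucose, DEH and mannitol in BY_DEH++. STD1, its paralogue, measured 26.9 and 5.04 CPM in BY_DEH+ against 18.9, 2.31 and 15.4 CPM in BY_DEH++. RGT1 itself ranged from 23.6 to 104 CPM, GRR1, of the ubiquitin ligase that removes Mth1, from 36.1 to 59.4 CPM, and the casein kinase genes YCK1 and YCK2 from 155 to 1123 CPM and from 121 to 196 CPM. The highest YCK1 value, in mannitol, lay outside the window near the coding start, where YCK1 stood at 38.2 CPM.

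Of 9 genes of the Snf1 and Mig1 pathway, 1 stood lower in DEH in BY_DEH+, 2 in BY_DEH++ and 3 in mannitol, against 3.47%, 2.28% and 6.24% of all genes, and none higher in these comparisons. The median log2 fold was -0.47, -0.47 and -0.42, against 0.12, -0.11 and -0.46 for all genes, so that in mannitol the list's median was close to that of all genes. MIG2, a glucose-induced repressor, stood at 129 and 16.8 CPM in glucose and DEH in BY_DEH+ and at 80.7, 2.87 and 2.30 CPM in glucose, DEH and mannitol in BY_DEH++. MIG3, of the same family, fell short of 4-fold in BY_DEH+ when summed over its clusters (28.1 CPM in glucose and 9.71 CPM in DEH). In BY_DEH++ that sum measured 25.5 CPM in glucose and 4.32 CPM in DEH, and was listed at 0 in mannitol. Near its coding start MIG3 stood at 18.2 CPM (BY_DEH+) and 15.8 CPM (BY_DEH++) in glucose. No MIG3 cluster in that window had a value above 0 in the DEH or mannitol libraries. The MIG3 tags read in DEH thus lay outside the window. MIG1 measured 184 CPM in glucose and 116 CPM in DEH in BY_DEH+. In BY_DEH++ it measured 203, 85.3 and 44.6 CPM in glucose, DEH and mannitol. SNF1 and SNF4, of the kinase that inactivates Mig1, ranged from 44.6 to 69.7 CPM and from 123 to 301 CPM. REG1 and GLC7, of the opposing phosphatase, ranged from 72.5 to 147 CPM and from 306 to 415 CPM, and the corepressor genes CYC8 and TUP1 from 50.5 to 103 CPM and from 76.97 to 128 CPM.

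None of the 4 sugar kinase genes passed 4-fold in any comparison, where 0.122% to 6.24% of all genes passed in a given direction. HXK1 ranged from 499 to 1871 CPM, HXK2 from 928 to 2432 CPM, GLK1 from 529 to 1287 CPM and EMI2 from 96.5 to 358 CPM. Their median log2 fold was -0.70 and -1.34 for DEH against glucose in BY_DEH+ and BY_DEH++, and -0.32 for mannitol, against 0.12, -0.11 and -0.46 for all genes. Of the 10 other genes of the transporter family, HXT8, HXT9, HXT13 and HXT17 reached 10 CPM. Of these 4, 2 stood 4-fold or more lower in DEH than in glucose in each strain and 1 in mannitol, against 3.47%, 2.28% and 6.24% of all genes. The median log2 folds were -1.33, -1.04 and -1.20, against 0.12, -0.11 and -0.46 for all genes. HXT8 ranged from 3.06 to 53.6 CPM, HXT9 from 185 to 284 CPM and HXT13 from 29.6 to 127 CPM, but no cluster of HXT9 or HXT13 lay near its coding start, and HXT8 had only 2.05 CPM there, in BY_DEH+ in DEH. HXT17, a carrier of mannitol and sorbitol, stood at 111 and 24.4 CPM in glucose and DEH in BY_DEH+ and at 118, 24.2 and 62.8 CPM in glucose, DEH and mannitol in BY_DEH++. At its coding start alone it measured 72.1 and 5.42 CPM in BY_DEH+ against 93.9, 8.65 and 13.2 CPM in BY_DEH++.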

How the data were processed

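Per the labels' protocols, RNA was prepared with acid phenol-chloroform, capped 5' ends were captured after biotinylation, and the cDNA was read on an Illumina NextSeq500. The submitters' processing notes name BWA, HISAT2 and mm9, a mouse build, without roles; the deposited cluster names carry sequence names of yeast R64, which was used here. The deposited values are normalised signal, that is, tags per start cluster that the authors gave in CPM; the rule that gave clusters to genes is not given in the sources used here. The column of class codes was not used.

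A gene's level was the sum of its clusters in the deposited gene column. Folds were log2 ratios of CPM + 1 over 4904 genes with 10 CPM or more in at least 1 library, called at 4-fold. Reads were CPM divided by the CPM of 1 read (0.0503 to 0.106); all values under 20 CPM lay within 0.15 of a whole read. Intervals are exact Poisson or binomial ones at 95% (SciPy 1.17.1). Cluster starts were shifted to 1-based positions after a check on 204 clusters of 1 base (65.7% a purine after a pyrimidine).

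The members, lists and rules were chosen with earlier results of these data known. Named were all members, the 3 genes nearest in profile to HXT2, HXT3 and HXT5, and all list genes with 10 CPM. The motifs are textbook forms. Clusters given to several genes count for each, so a column of the deposited table sums to over its library and its unit was taken as signal; the folds were computed as planned for CPM. Alternatives were another fold limit, pseudocounts, scaling, cluster choices, no filter and a limma 3.58.1 fit with medium and strain as additive terms. The fold rule and the limma fit were also run on simulated data with 8-fold changes, alike in both strains, and an assumed spread. That run does not show how they do on smaller changes, on strain differences or on values listed at 0.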

Additional observations from a re-analysis of the deposited data

Results flagged for a closer look

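As listed, the log2 folds of DEH over glucose had opposite signs in the strains for HXT6, SNF3 and RGT2. The log2 fold in BY_DEH+ exceeded that in BY_DEH++ by 3.70 for HXT6, 0.70 for SNF3 and 0.48 for RGT2. With 1 library in each group these differences were not tested. The sum of HXT6 and HXT7, which does not depend on how reads were split between them, did not have opposite signs. Its ratios were 0.945 in BY_DEH+ and 0.288 in BY_DEH++. For SNF3 the interval of the ratio in BY_DEH++ (0.857 to 1.07) includes 1, and with median-of-ratios scaling its log2 folds had the same sign (0.55 and 0.03).

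Of the clusters with no gene in the deposited table that lie inside a member's coding sequence, 3 reached 10 CPM outside glucose, in HXT1 and HXT3, and stood higher there than in glucose. Smaller ones lay inside other members, such as a sense cluster in HXT2 of 2.20 to 8.03 CPM. A sense cluster 1217 to 1336 bases into HXT3 (chromosome IV, 1163324 to 1163443) measured 25.04 CPM in DEH against 6.89 CPM in glucose in BY_DEH+, and 15.6 CPM in DEH and 29.25 CPM in mannitol against 5.27 CPM in glucose in BY_DEH++, the opposite order to the HXT3 clusters at the coding start. An antisense cluster 1023 to 1069 bases into HXT3 measured 10.65 against 2.23 CPM in BY_DEH+, and 4.27 and 6.21 against 0.68 CPM in BY_DEH++. An antisense cluster 1436 to 1481 bases into HXT1 measured 12.14 against 3.18 CPM in BY_DEH+, and 5.08 and 6.60 against 3.62 CPM in BY_DEH++.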

How the results depend on the processing

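Of the recomputed counts of members past the limit, 13 lay outside 1.5 times the reported count. A 2-fold limit gave 3 members higher in DEH in BY_DEH+, 1 in BY_DEH++ and 1 in both strains, 1 lower in BY_DEH++ between the strains in DEH, and 3 higher and 1 lower between them in glucose. A pseudocount of 10 CPM gave 3 lower in DEH in BY_DEH++, without HXT1 and HXT10. Clusters near the coding start, or the main cluster alone, each gave 1 lower between the strains in DEH and 2 higher between them in glucose. Leaving the PAL2 cluster out of HXT5, chosen after seeing the data, gave 1 lower between the strains in DEH. The limma fit, with 1 residual degree of freedom and the strains standing in for replicates of a medium, gave 1 member higher (HXT5) and 2 lower (HXT3 and HXT4). No called fold of a member changed sign under the alternatives for pseudocount, scaling or clusters, while 110 recomputed folds moved beyond their counting interval. The groups hold 1 library each, so there are no replicate numbers to pair, and the limma fit compares the media within strains.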
